A study of Mus musculus with 42 samples.

Results

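The centromere-proximal ends of the mouse autosomes were examined for lamina-associated domains (LADs) in liver. In the mm10 assembly the centromere lies at position 0 of each chromosome, and the first 3 Mb hold no assembled sequence: 570 of 570 bins of 100 kb there were more than 50 kb undetermined bases, and 0 bp of LAD were called in them. The proximal end of a chromosome was therefore taken as the 100 bins of 100 kb from 3 Mb to 13 Mb, which gave 1900 bins on 19 autosomes, out of 24050 autosomal bins from 3 Mb to the chromosome ends. A bin was counted in a LAD when LAD calls covered 50 kb or more of it, and the LAD share is the percentage of bins so counted. The rule for the bins uses position and no measured value.

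LADs had been mapped by chromatin immunoprecipitation of the nuclear lamina protein lamin B1 (LMNB1) followed by sequencing, in livers of 14 wild-type C57Bl/6 mice kept in 12 h of light and 12 h of dark. Non-synchronized (NS) mice were taken before food restriction. All other mice were fasted for 24 h, refed at circadian time CT0 and sampled at CT0, CT6, CT12, CT18, CT24 and CT30, so that CT denotes hours after refeeding, and each group holds 2 mice of 7 killed. Ages were not given, the labels call the mice female in some fields and male in others, and with LAD positions only the tissue could not be checked by marker genes.

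The nuclear lamina is a meshwork of A-type and B-type lamins beneath the inner nuclear membrane, and LADs are the long, mostly gene-poor and A/T-rich domains that contact it. In many cell types a large part of LADs is constitutive, and genes within them tend to be silent. Mouse autosomes are acrocentric: the centromere sits near one end, flanked by satellite repeats that gather with those of other chromosomes in chromocenters, often at the nuclear periphery or around nucleoli. The bins examined here are the first assembled sequence next to those repeats.

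To show what such DNA looks like, 300 bases are given from the centre of 3 proximal bins, read from the plus strand of the RefSeq copy of GRCm38.p6 (the sequence of mm10), 5′ to 3′, with runs of 6 or more A or T in capitals. The first bin was in a LAD in all 14 libraries and the second in none, and each has the GC content nearest to the median of its class (38.0% and 42.3%). The third, chosen after the values were seen, lies in a block of chromosome 14 in which LADs were called in some libraries only.
chr9:10449851-10450150, in a LAD in 14 libraries: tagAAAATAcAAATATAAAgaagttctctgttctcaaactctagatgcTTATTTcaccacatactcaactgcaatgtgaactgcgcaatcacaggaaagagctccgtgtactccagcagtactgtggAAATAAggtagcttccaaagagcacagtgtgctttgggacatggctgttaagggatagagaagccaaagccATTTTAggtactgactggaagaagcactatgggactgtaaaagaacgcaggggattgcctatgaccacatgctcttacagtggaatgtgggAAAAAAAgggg
chr15:10949851-10950150, in a LAD in no library: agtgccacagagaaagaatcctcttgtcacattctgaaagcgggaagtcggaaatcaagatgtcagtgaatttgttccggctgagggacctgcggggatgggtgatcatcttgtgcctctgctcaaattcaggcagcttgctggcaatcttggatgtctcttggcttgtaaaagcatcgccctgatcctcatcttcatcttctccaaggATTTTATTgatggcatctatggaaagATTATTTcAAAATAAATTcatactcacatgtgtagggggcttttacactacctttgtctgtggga
chr14:3049851-3050150, in a LAD in 8 libraries: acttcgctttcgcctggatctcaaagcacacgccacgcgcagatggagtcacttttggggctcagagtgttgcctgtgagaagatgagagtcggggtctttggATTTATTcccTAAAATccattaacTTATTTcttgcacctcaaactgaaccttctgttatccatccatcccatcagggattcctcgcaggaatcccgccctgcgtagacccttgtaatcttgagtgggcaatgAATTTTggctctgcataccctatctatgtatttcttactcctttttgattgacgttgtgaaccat
Runs of A or T took up 13.3% of the chromosome 9 window, against 8.33% in each of the windows from chromosomes 15 and 14. Over all proximal windows of this length without undetermined bases, the median was 13.3% in the 125 bins that were in a LAD in all 14 libraries and 9% in 1150 bins that were in none. The median was 10.3% over all proximal windows, as in the rest of the autosomes. The GC content of a 300-base window can differ from that of its bin: it was 43.3% in the chromosome 9 window, whose bin had 38.0%.

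The first question was whether the proximal ends carry more or less LAD than the remainder of the chromosomes. Averaged over 14 libraries, 21.4% ± 4.73 (SD, n = 14) of proximal bins were in a LAD, with 12.7% in the lowest library, NS replicate 1, and 30.5% in the highest, CT18 replicate 2. The share of the other 22150 autosomal bins was 21.6% ± 4.16. The difference within a library was -0.127 ± 2.93 percentage points, with 7 libraries higher and 7 lower at the proximal ends (exact sign-flip permutation test over libraries, two-sided, p = 0.878). The opposite ends of the chromosomes, the last 10 Mb before the telomere, differed. There the share was 11.9% ± 2.6 and ranged from 7% to 15.4%. The proximal share exceeded it in 14 of 14 libraries, by 9.52 ± 3.25 points (exact sign-flip permutation test, two-sided, p = 0.000122, the smallest this design can give). The telomere-proximal bins also had a higher median GC content (44.2%, against 40.9% at the proximal ends). They held 10.6 protein-coding genes per Mb, against 7.82. The part of either in this difference was not tested. The 14 libraries are separate mice but share 1 genome and 1 LAD caller, so these p-values cover only the spread between libraries.

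The near equality of the proximal ends and the rest was an average over chromosomes and distances that did not resemble each other, and it depended on where the proximal end was taken to stop. Bins from 3 to 8 Mb were in a LAD in 17.6% ± 5.89 of cases and bins from 8 to 13 Mb in 25.3% ± 4.32. The nearer stretch was lower in 14 of 14 libraries, with a difference of -7.71 ± 4.16 points (exact sign-flip permutation test, two-sided, p = 0.000122). Chromosomes contributed unevenly to this difference. Without chromosome 11, 7 or 6 the mean was -4.37, -4.57 or -5.27 points, with 3, 3 and 2 libraries above 0. Without chromosome 14 or 8 it was -11.7 or -10.3 points. With the proximal end restricted to 3 to 8 Mb, its share was 3.98 points below the rest (p = 0.00220 in the same exact test), and with the end extended to 23 Mb it was 5.15 points above (p = 0.000122).

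**Figure D1:**
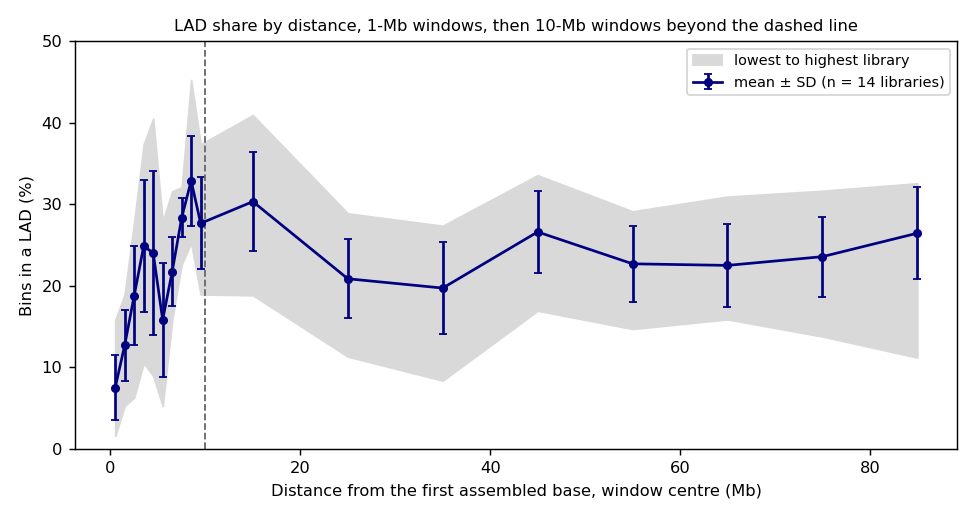
Percentage of 100-kb bins in a LAD against distance from the first assembled base (3 Mb on the chromosome), in 1-Mb windows up to 10 Mb and 10-Mb windows beyond the dashed line. Points and bars are the mean and SD of 14 libraries, shading spans the lowest to the highest library, and the first window has the lowest mean, 7.52%.

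In steps of 1 Mb, the share was lowest next to the centromere. It was 7.52% ± 4.03 at 3 to 4 Mb, 12.7% ± 4.35 at 4 to 5 Mb, 18.8% ± 6.10 at 5 to 6 Mb and 24.9% ± 8.12 at 6 to 7 Mb. A second low of 15.8% ± 6.98 lay at 8 to 9 Mb, and the highest value, 32.9% ± 5.52, at 11 to 12 Mb. Beyond the proximal ends the mean was 30.3% at 13 to 23 Mb and between 19.7% and 26.6% in each 10-Mb window from 23 to 93 Mb, of which those beyond 63 Mb lack chromosome 19. The plot of LAD share by distance shows SD bars of neighbouring windows that overlap, while the bar of the first window lies wholly below that of the window at 11 to 12 Mb.

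LADs within the first assembled megabase were seen on 4 chromosomes: chromosome 9 in 13 libraries, chromosome 14 in 10, chromosome 3 in 6 and chromosome 16 in 1. The bin next to the assembly gap, at 3.0 to 3.1 Mb, was in a LAD on 0 to 2 chromosomes in a library. Gene density also changed along this distance, from 10.7 protein-coding genes per Mb at 3 to 4 Mb and 12.7 at 4 to 5 Mb to 3.63 at 9 to 10 Mb and 6.84 at 11 to 12 Mb. Its part in the distance profile was not tested.

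The lower share of the nearer stretch went with less uniform calls. Of the 950 bins from 3 to 8 Mb, 6 were in a LAD in all 14 libraries, and of the 950 bins from 8 to 13 Mb, 119 were. Bins in no library numbered 594 in the nearer and 566 in the farther stretch. None of the bins below 7 Mb was in a LAD in all 14 libraries, whereas 42 of 190 bins at 10 to 11 Mb were. The proximal ends as a whole had 125 bins in a LAD in all 14 libraries (6.58%, against 6.23% of all autosomal bins), 1160 in none (61.1%, against 62.7%) and 615 in between. Constant and absent LADs were thus about as frequent at the proximal ends as in the genome, and the constant ones lay mostly beyond 8 Mb. At the telomere-proximal ends 57 bins were in a LAD in all 14 libraries and 1475 of 1900 (77.6%) in none.

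A library had 7 to 38 LADs touching the proximal ends, with a median of 18.5, and 3 to 8 of them ran past 13 Mb. Their median length in a library was between 0.988 and 4.28 Mb (median of libraries 2.32 Mb), and that of the other autosomal LADs between 1.06 and 3.39 Mb (2.32 Mb). The mean density of LAD borders was 0.194 per Mb at the proximal ends and 0.162 per Mb elsewhere.

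**Figure D2:**
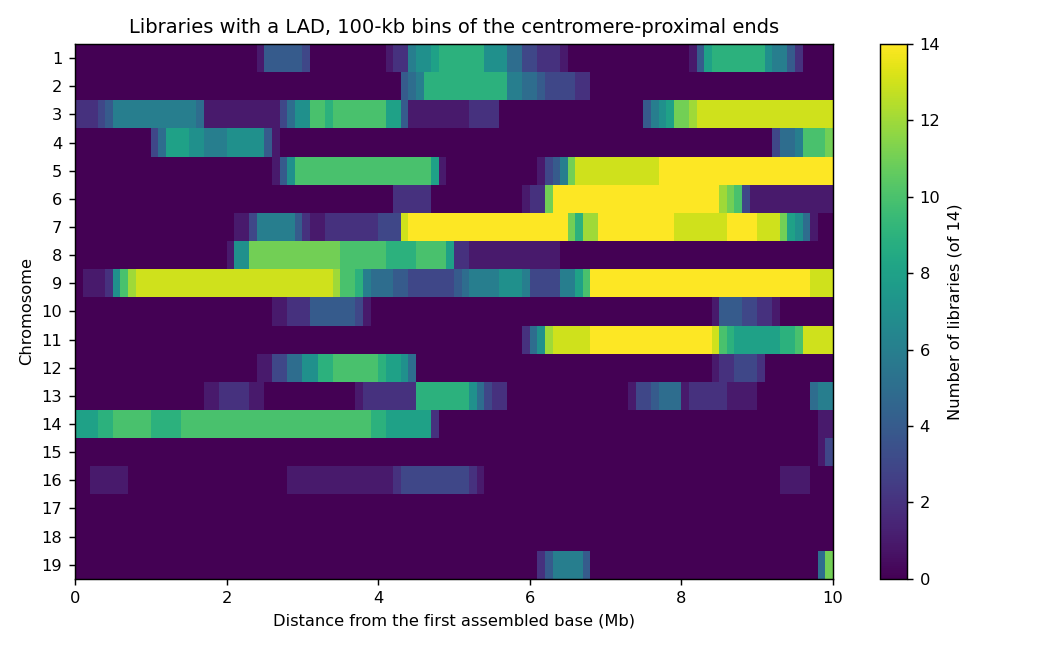
Number of libraries, of 14, in which each 100-kb bin was in a LAD, for the proximal end of each autosome (rows) against distance from the first assembled base in Mb. Colour runs from 0 to 14 libraries, yellow stretches mark the 125 bins found in all 14, and chromosomes 17 and 18 are at 0 throughout.

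Chromosomes differed far more than libraries did. Over the 14 libraries the median proximal share was 71% on chromosome 9 (lowest library 32%, highest 99%), 55.5% on chromosome 7 (42% to 73%) and 54.5% on chromosome 5 (23% to 61%). These are the 3 highest. At the other extreme, no proximal bin of chromosomes 17 and 18 was in a LAD in any library. The median was also 0% on chromosome 15, with 2% in the highest library, and on chromosomes 10 and 16, which reached 20% and 24% and were at 0 in 10 and 11 libraries. The other 11 chromosomes had medians from 2% on chromosome 19 to 47% on chromosome 14.

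Libraries did not keep 1 order across chromosomes. NS replicate 1, with the lowest proximal share of all, was also lowest on chromosome 9 (32%), chromosome 5 (23%) and chromosome 3 (0%), but highest on chromosome 7 (73%). On chromosome 9 the highest values were 99% in CT18 replicate 1, 95% in CT6 replicate 1 and 93% in CT0 replicate 1, each well above its partner of the same time point (75%, 76% and 74%). On chromosome 5 both mice of CT30 had 35%, against 58% in both mice of CT24. On chromosome 3 the mice of CT18 were far apart, at 21% and 59%.

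On 5 chromosomes (5, 6, 7, 9 and 11) a proximal bin was in a LAD in every library. The first LAD began at a median of 3.55 Mb on chromosome 9 (range 3.06 to 9.82 Mb over 14 libraries), 5.84 Mb on chromosome 5 (5.63 to 10.7 Mb), 6.65 Mb on chromosome 7 (5.15 to 7.36 Mb), 9.15 Mb on chromosome 11 (8.90 to 9.83 Mb) and 9.21 Mb on chromosome 6 (7.21 to 9.32 Mb). The first start thus spread least over libraries on chromosome 11 and most on chromosome 9, where NS replicate 1 alone began beyond 9 Mb. On 12 chromosomes the proximal share was 0 in some libraries and above 0 in others.

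Each chromosome was then compared with its own remainder from 13 Mb to the end. The proximal share differed on 14 of 19 chromosomes (73.7%) in an exact sign-flip permutation test over libraries, two-sided, with Benjamini-Hochberg adjustment over 19. On chromosomes 17 and 18 the proximal share was 0 in every library, so any LAD in the remainder fixed the direction. Other windows of a chromosome were not compared with its remainder, so the count cannot be called particular to the proximal ends. It was higher on chromosomes 9, 7, 5, 3 and 11, by 58.2 ± 14, 35 ± 10.2, 27.8 ± 8.12, 23.4 ± 14.3 and 14.8 ± 6.39 points (SD over 14 libraries). Chromosome 3 was higher in 13 of 14 libraries (adjusted p = 0.000535) and the other 4 in 14 of 14 (adjusted p = 0.000211, exact test).

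It was lower on chromosomes 2, 4, 10, 12, 15, 16, 17, 18 and 19. The lowest differences were -28.9 ± 5.18 points on chromosome 17 and -24.7 ± 2.94 points on chromosome 15. Both were lower in 14 of 14 libraries. Chromosomes 1, 6, 8, 13 and 14 did not pass the test, with adjusted p between 0.0642 and 0.772 in the exact test. Chromosomes 9, 7, 5 and 14, the 4 with the highest medians, held 51.2% of all proximal bins in a LAD, summed over libraries, and 21.1% of the proximal bins. The value for all autosomes therefore leaned on single chromosomes: without chromosome 9 the proximal ends were 3.35 points below the rest (p = 0.000610, exact sign-flip permutation test), and without chromosome 17 they were 1.35 points above it (p = 0.121).

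**Figure D3:**
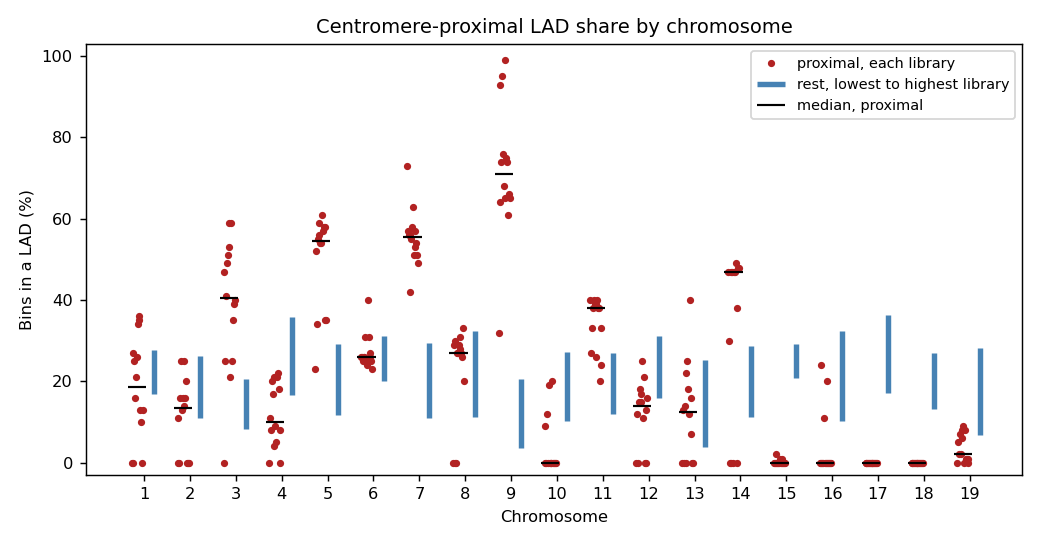
Percentage of proximal bins in a LAD for each autosome, with a red point per library (n = 14) and a black bar at their median, beside a blue bar from the lowest to the highest library for the remainder of the same chromosome. Medians run from 0% on chromosomes 10, 15, 16, 17 and 18 to 71% on chromosome 9, and the points of chromosome 14 split into 4 libraries at 0% and 10 between 30% and 49%.

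The stretches that were in a LAD in every library formed 7 runs on 5 chromosomes. The longest was chr9:9800001-12700000, 2.9 Mb with the start site of a single protein-coding gene, Cntn5, which encodes the neural cell adhesion protein contactin 5. Next came chr5:10700001-13000000, 2.3 Mb with 14 start sites, among them Sema3d, a secreted axon guidance semaphorin, and Speer1, of a testis-expressed family. The run chr6:9300001-11500000 spanned 2.2 Mb and held 0 start sites. The run chr7:7400001-9500000 spanned 2.1 Mb and its 14 genes were all Vmn2r receptors. The last of the 5 longest, chr11:9800001-11400000, was 1.6 Mb long and held Vwc2, which encodes a secreted antagonist of bone morphogenetic proteins. The remaining runs, 1 Mb and 0.4 Mb long, were both on chromosome 7.

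The stretches that were in a LAD in no library formed 39 runs on all 19 chromosomes, from 0.1 to 10 Mb long. The whole proximal ends of chromosomes 17 and 18, 10 Mb each, held 66 and 46 start sites, and chr15:3000001-12800000, of 9.8 Mb, held 59. The next were chr4:5700001-12200000 with 30 start sites over 6.5 Mb and chr19:3000001-9100000 with 223 over 6.1 Mb. Proximal bins in no LAD held 9.91 protein-coding genes per Mb, against 3.92 in the bins that were in a LAD in all 14 libraries. In the rest of the autosomes the same classes held 11.5 and 0.932 per Mb, so constant LADs at the proximal ends were the richer in start sites. The median GC content was 42.3% in the former class and 38.0% in the latter at the proximal ends, and 39.3% in bins found in 1 to 13 libraries.

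Receptors of the vomeronasal organ, which detects pheromones, account for most of the genes in constant proximal LADs. A gene was counted in a LAD when the 100-kb bin with its start site was, so its own position can differ from the count. Of 1486 protein-coding genes with a start site in a proximal bin, 49 (3.30%) were in a LAD in all 14 libraries and 1150 (77.4%) in none. The shares among 19321 genes elsewhere were 0.662% and 83.2%. There were 62 Vmn1r and Vmn2r genes, 59 of them on chromosome 7, and 30 of the 62 were in a LAD in all 14 libraries. Among 267 vomeronasal receptor genes elsewhere on the autosomes, 15 (5.62%) were. The 30 Vmn1r genes of proximal chromosome 7 were in a LAD in 1 to 14 libraries (median 13) and the 29 Vmn2r genes in 1 to 14 (median 14). The bins of Vmn1r55 and Vmn2r56, at the borders of the cluster, were in a LAD in 1 library each. For Vmn1r55 this was CT12 replicate 2, whose call began at 5150001, just past the gene's end at 5149670. Vmn1r238, Vmn1r2 and Vmn1r3, on chromosomes 18 and 4, were in none. As neighbours in 1 cluster under the same few LADs, these genes are not separate observations. The bins of the Vmn2r run also hold much repeated sequence. A median of 95.8% of their 31-base words occurred more than once on chromosome 7. Over all proximal bins the median was 12.0%, with each bin's words counted on its own chromosome. The part of this in the LAD calls was not tested.

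Of 42 olfactory receptor genes, which encode odorant receptors, 25 were in a LAD in no library (59.5%, against 77.4% of all proximal genes and 20.8% of olfactory receptor genes elsewhere) and 0 in all. Chromosome 19 holds 32 of the 42 and 24 of the 25. A group at the far edge of chromosome 19 went from 5 libraries for Olfr1444 to 11 for Olfr1451, where the chromosome entered a LAD near 13 Mb. Of 32 zinc finger (Zfp) genes, 19 were in no library (59.4%, against 86.4% of Zfp genes elsewhere) and 0 in all, with Zfp804b on chromosome 5 highest at 10 libraries. Chromosome 7 holds 23 of the 32, and 11 of these were in no library. Neighbouring genes of either family are not separate observations. Cdh17, the only cadherin here and an intestinal adhesion protein, was in none.

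Genes that serve liver functions were in no proximal LAD in any library. The list for these was written from knowledge of which such genes lie near centromeres, so 30 of its 31 genes are proximal by choice and their common absence from LADs has no independent weight beside the 77.4% above. It includes Apob, the structural protein of very low density lipoprotein, on chromosome 12, and Cyp7a1, the rate-limiting enzyme of bile acid synthesis, on chromosome 4. Chromosome 15 holds Ghr, the growth hormone receptor, the selenium carrier Selenop and the complement genes C6, C7 and C9. On chromosome 17 lie Plg (plasminogen), the organic cation transporters Slc22a2 and Slc22a3, and Igf2r, which clears insulin-like growth factor 2. Chromosome 19 holds Cpt1a and Pcx, which act in fatty acid oxidation and gluconeogenesis. The sterol enzyme Cyp51 and the transporters Abcb1a, Abcb1b and Abcb4 are on chromosome 5, the paraoxonases Pon1, Pon2 and Pon3 on chromosome 6, and Insr, the insulin receptor, on chromosome 8.

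Within chromosome 13 the steroid-metabolizing aldo-keto reductases Akr1c6, Akr1c12, Akr1c13, Akr1c14, Akr1c18, Akr1c19, Akr1c20 and Akr1c21 form a cluster between 4 and 5 Mb that was also in no library. Of 22 core clock genes, 0 lie in the proximal ends. Of the lamina and nuclear envelope genes, Syne1 (nesprin-1) on chromosome 10 and Banf1 (barrier-to-autointegration factor) on chromosome 19 do, and both were in a LAD in 0 libraries. Among genes picked after their values were seen, the glutamate receptor genes Gria4 on chromosome 9 and Grm3 on chromosome 5 were in a LAD in 13 libraries, as were the inflammatory caspases Casp1, Casp4 and Casp12 and the growth factor Pdgfd on chromosome 9.

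The second question was whether the proximal ends follow the circadian time points. Proximal shares in the 2 mice of a time point were 12.7% and 22.1% in NS, 15.9% and 21.8% at CT0, 23.7% and 27.1% at CT6, and 21.5% and 25.5% at CT12. The values at CT18 were 25% and 30.5%, 19.7% and 19.3% at CT24, and 17.8% and 17.6% at CT30. Both CT6 mice were thus above both mice of CT0, CT24 and CT30, and NS and CT0 had the widest spread between mice. The mean was highest at CT18, 27.7% ± 3.87 (SD, n = 2), followed by CT6 with 25.4% ± 2.38 and CT12 with 23.5% ± 2.79. It was 19.5% ± 0.298 at CT24, 18.9% ± 4.21 at CT0, 17.7% ± 0.149 at CT30 and 17.4% ± 6.66 in NS.

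**Figure D4:**
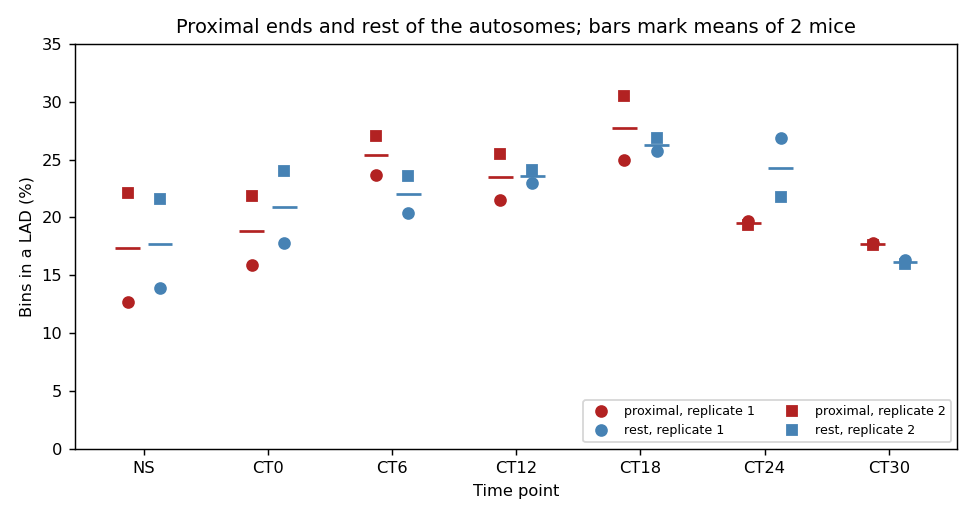
Percentage of 100-kb bins in a LAD at each time point for the proximal ends (red) and the rest of the autosomes (blue), with circles for replicate 1, squares for replicate 2 and bars at the mean of 2 mice. Proximal means run from 17.4% in NS to 27.7% at CT18, and the 2 colours are farthest apart at CT24, where the rest is higher.

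Between CT0 and CT30 the proximal share did not pass the test (F = 4.2 over 6 time points, 12 libraries, p = 0.0564, exact permutation test over all divisions into pairs). The rest of the autosomes gave F = 3.73 (p = 0.0846, same exact test), the bins from 3 to 8 Mb F = 1.94 (exact p = 0.233) and those from 8 to 13 Mb F = 3.94 (exact p = 0.0626). The outcome for the proximal share depended on how LADs were counted. With LADs of 1 Mb or more only, F was 16.4 (p = 0.000866, exact permutation test), and with only bins wholly inside a LAD it was 5.58 (exact p = 0.0336). LADs under 1 Mb made up 0% and 53.1% of the proximal LADs in replicates 1 and 2 of CT0. These shares were 0% and 31.25% at CT6, 0% and 39.5% at CT18, and 0% and 7.14% at CT30. They were 40% and 28.6% at CT12 and 5.56% and 10.5% at CT24. The part of this uneven spread of short LADs in the change of F was not tested. The long LADs alone gave means of 25.7% ± 1.04 at CT18, 24.1% ± 0.595 at CT6, 20.7% ± 2.83 at CT12, 18.8% ± 0.558 at CT24, 17.7% ± 0.186 at CT30 and 16.3% ± 0.558 at CT0 (n = 2 each). CT6 and CT18 were the high time points on either count. The same test was run in each of 17 chromosomes with any proximal LAD from CT0 to CT30, and 0 passed after Benjamini-Hochberg adjustment (0%), while 1, chromosome 6, had an unadjusted p below 0.05 (exact p = 0.0358). CT0 exceeded NS by 1.47 points (exact permutation p = 1, where 2 mice against 2 cannot give less than 0.33).

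The difference between proximal ends and the rest, which removes changes common to the whole genome, was 3.32 and 3.44 points at CT6, 1.46 and 1.57 at CT30, -1.86 and -2.22 at CT0, and -7.09 and -2.42 at CT24. Mice at CT12 (-1.48 and 1.35) and CT18 (-0.765 and 3.63) fell on both sides of 0. Over CT0 to CT30 the time points differed in this measure (F = 4.14, p = 0.0358, exact permutation test, 12 libraries), but the p rose above 0.05 on leaving out each of 9 of the 12 libraries in turn, up to 0.135. These 9 were both mice of CT0, CT6, CT12 and CT30 and CT24 replicate 1.

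Across libraries, the proximal share went with the share of the rest. Pearson's r was 0.790 (n = 14, permutation p = 0.00072, adjusted over 2 relations 0.00144) and Spearman's rho 0.745 (permutation p = 0.00315, adjusted 0.0063). Without NS replicate 1 and CT30 replicate 2, the libraries farthest from the median of the share of the rest, r was 0.666 (n = 12, permutation p = 0.0176). Within replicate 1 it was 0.759 (n = 7, exact permutation p = 0.0536), and within replicate 2 it was 0.849 (n = 7, exact permutation p = 0.0119). The libraries also differ in the step on which LAD starts lie, from 4 to 61 kb. The proximal-minus-rest difference had r = 0.0151 with the log2 of this step (permutation p = 0.960) and rho = 0.0396 (permutation p = 0.894). For the proximal share itself this relation was not tested. That share was 12.7% in NS replicate 1 (61 kb), 15.9% in CT0 replicate 1 (47 kb) and 30.5% in CT18 replicate 2 (6 kb). It was 23.7% in CT6 replicate 1 (35 kb), and 22.1% and 21.8% in NS and CT0 replicate 2 (4 kb). Steps were 31 and 46 kb at CT30 and 19 and 6 kb at CT18, so step and time point cannot be fully told apart. The deposited names number libraries 1, 2 or 3. Within these numbers the mean proximal-minus-rest difference was -1.03 points (n = 6), 1.51 (n = 5) and -1.05 (n = 3). The mean difference of 3 to 8 Mb from 8 to 13 Mb was -11.4, -4.59 and -5.47 points, of the same sign in all 3.

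Gains and losses between time points were counted as bins in a LAD in both mice of a time point and in neither mouse of the other, which is a description with no test. From NS to CT0, 35 proximal bins were lost (1.84%, against 0.287% of all autosomal bins) and 14 gained (0.737%, against 0.69%). Of the 35 lost bins, 30 lay on chromosome 14 and 5 on chromosome 7. From CT0 to CT6, 69 proximal bins were gained (3.63%, against 0.936%) and 0 lost (against 0.561%), and 47 of the 69 were on chromosome 14. Both of these shares thus came mainly from 1 block, described next.

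From CT6 to CT12, 19 bins were gained (1%, against 1.42%) and 22 lost (1.16%, against 0.74%), 10 each of the losses on chromosomes 4 and 9. From CT12 to CT18, 23 were gained (1.21%, against 1.15%) and 9 lost (0.474%, against 0.304%). From CT18 to CT24, 3 were gained (0.158%, against 0.462%) and 35 lost (1.84%, against 0.981%), 13 of the losses on chromosome 1. From CT24 to CT30, 12 were gained (0.632%, against 0.69%) and 49 lost (2.58%, against 4.52%), 10 of the gains on chromosome 14 and 21 of the losses on chromosome 5. Over the longer interval from CT12 to CT30, 100 were lost (5.26%, against 5.21%) and 1 gained (0.0526%, against 0.628%), while from CT0 to CT12 25 were gained (1.32%, against 0.644%) and 8 lost (0.421%, against 0.412%).

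The block on chromosome 14 reaches from the assembly gap to 7.8 Mb, 48 bins with 100 protein-coding start sites, most of them predicted Gm genes. It was in LADs in 10 libraries and in none in the other 4, CT0 replicates 1 and 2, CT12 replicate 1 and CT24 replicate 1. In CT6 replicate 1 the call ran from 3010001 to 7700000, and in CT12 replicate 2 from 3000001 to 7740000. In NS replicate 2, with 30 bins in 2 LADs, and CT24 replicate 2, with 38 bins, the calls were shorter. The other 8 libraries had 47 or 48 of the 48 bins. The block thus appeared or was missing almost whole, and mice of the same time point differed in it at CT12 and CT24.

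Its sequence is unusual among proximal bins. A median of 94.7% of the 31-base words in its bins occurred more than once on chromosome 14, the only chromosome searched for them. In the remaining 52 bins of proximal chromosome 14 the median was 8.53%. A median of 62.3% of the bases in the block's bins were marked as repeats. Its median GC content, 42.5%, was close to that of bins in no LAD. The part of repeated sequence in these calls was not tested. With the block left out, a step chosen after the data were seen, the proximal ends were 1.29 points below the rest (p = 0.0532, exact sign-flip permutation test) and 8.35 points above the telomere-proximal ends (exact p = 0.000122). The bins from 3 to 8 Mb were then 10.3 points below those from 8 to 13 Mb (exact p = 0.000122), and the test of the proximal-minus-rest difference over time gave F = 4.39 (exact p = 0.0399).

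Last, base composition, which was not used to choose the bins, was set beside the LAD share. All autosomal bins were split into 5 classes of equal size by GC content. In the most A/T-rich class (33.5% to 38.2% GC) 66.6% ± 15.1 (SD, n = 14) of proximal bins and 70.1% ± 13.8 of the others were in a LAD. In the second class these values were 27.2% ± 8.02 and 27.9% ± 7.68. In the third, proximal bins had 11% ± 5.12 and the others 7.26% ± 3.15, with the proximal value higher in 12 of 14 libraries, and in the fourth 5.10% ± 2.81 and 1.83% ± 1.51, higher in 13 of 14. The 48 bins of the chromosome 14 block have a median GC content of 42.5%, near the border of these classes at 42.6%. The part of this block in the higher proximal values was not tested. In the most GC-rich class both were near 0, at 0.12% ± 0.256 and 0.394% ± 0.445. The proximal ends had 15.4% of their bins in the most A/T-rich class, against 20.4% of the rest. Averaged within the classes, the proximal ends were 0.824 points above the rest (p = 0.317, exact sign-flip permutation test over 14 libraries).

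**Figure D5:**
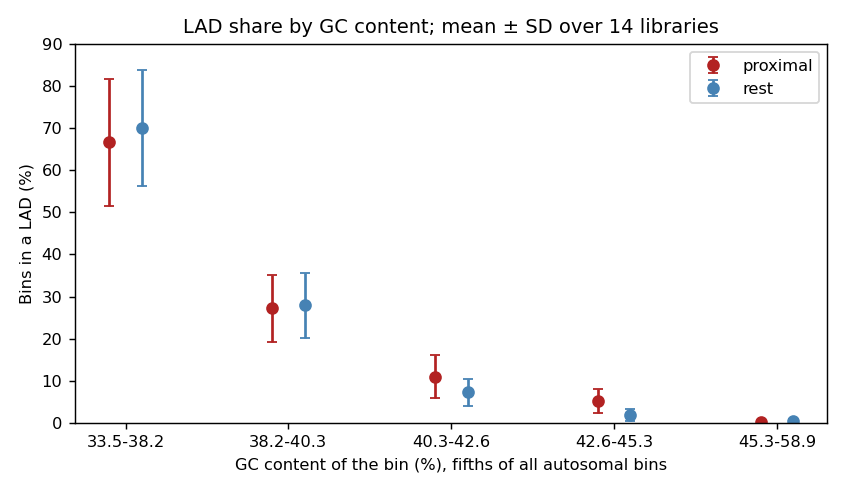
Percentage of 100-kb bins in a LAD in 5 classes of GC content for the proximal ends (red) and the rest of the autosomes (blue), as mean and SD of 14 libraries. The share falls from 66.6% and 70.1% in the most A/T-rich class to 0.12% and 0.394% in the most GC-rich class.

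Across bins, the number of libraries with a LAD had a Spearman's rho of -0.609 with GC content at the proximal ends (n = 1897 bins) and -0.720 elsewhere (n = 22135 bins). The corresponding values were 0.506 and 0.504 for the share of repeat-masked bases, 0.441 and 0.436 for the share of repeated 31-base words and -0.194 and -0.345 for the number of start sites. Neighbouring bins share LADs and base composition, so these values describe the genome and have no p. The proximal pattern was moderately alike between mice: the bins in a LAD in both of 2 libraries made up a mean of 0.614 of those in either for the 7 pairs of the same time point (range 0.415 to 0.764) and 0.584 for the 84 other pairs (0.325 to 0.843).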

How the data were processed

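The data used were LAD calls from LMNB1 ChIP-seq of 14 mouse livers, which the authors deposited as the start and end of each LAD in base pairs on mm10, with no score, count or other value. Per the study's methods, reads were mapped with Bowtie2 2.25.0 (version from the submitters' processing notes), duplicates were removed with Picard, ChIP and input were down-sampled to equal depth for each chromosome, and LADs were called for each mouse with EDD, its gap penalty and bin size averaged over repeated runs. Read depth is unknown, so no counting error or floor is given. Precision comes from the 2 mice of a time point and from the 14 libraries. Read mapping and the caller's gap penalty decide whether repeated sequence enters a LAD, and the deposited positions cannot show this.

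Calls were overlapped with 100-kb bins of GRCm38.p6 (2845 LADs, 2764 of them autosomal, 0 past a chromosome end). Genes were those of GENCODE vM21, each counted with the bin that holds its start site. GC content, repeat masking and 31-base words (1 in 8 sampled) were read from the RefSeq sequence. A word counted as repeated if it occurred more than once on the same chromosome, on either strand. Python 3.11.15, NumPy 2.4.6, SciPy 1.17.1 and pandas 2.3.3 were used. Differences within libraries were tested with exact sign-flip permutation tests, time points with exact permutation of an F ratio, and correlations with 100000 permutations (exact for n = 7), all two-sided except F, with 0.05 as the threshold. The tests were checked on simulated data.

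The text names the 3 chromosomes of highest and those of lowest median (5 were tied at 0), the 5 longest runs of each class, and genes from fixed symbol lists, of which not every member is reported here. Members and lists were chosen with earlier results of these data known. Alternatives were other overlap rules, LADs of 1 Mb or more, base pairs, other distances, GC classes, a replicate block, and leaving out each library or chromosome. Inputs, RNA-seq and the sex chromosomes were not analysed here.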

Additional observations from a re-analysis of the deposited data

Results flagged for a closer look

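The difference between the proximal ends and the rest of the autosomes drew attention because both mice of a time point lay on the side of 0 opposite to both mice of another. This was so for CT6 against CT0, where the mean difference was 5.42 points higher at CT6, and for CT30 against CT0, where it was 3.56 points higher at CT30. CT24 was -8.14 points from CT6, and CT30 was 6.28 points above CT24. These 4 pairs were not tested one by one. Over CT0 to CT30 together the measure gave F = 4.14 (p = 0.0358, exact permutation test over 12 libraries), a call that was lost when any 1 of 9 of them was left out.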

How the results depend on the processing

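The mean of the lower share at 3 to 8 Mb than at 8 to 13 Mb (-11.7 to -4.37 points) kept direction and call in every alternative run. Its size varied most on leaving out single chromosomes, and without chromosome 6, 7 or 11 some libraries were above 0. The higher share than at the telomere-proximal ends (8.35 to 9.93 points) did so too, but this comparison was not run without single chromosomes. The count of chromosomes that differed from their remainder stayed between 14 and 17, with 0 called over time. The near-zero difference from the rest changed sign within GC classes (0.824) and without chromosomes 1 (0.211), 2 (0.316), 4 (0.717), 10 (0.761), 12 (0.572), 13 (0.173), 15 (1.2), 16 (0.945), 17 (1.35), 18 (1.01) or 19 (0.783), and with 3 to 23 Mb (5.15). It passed the test with 3 to 8 Mb (-3.98) and without chromosomes 3 (-1.53), 5 (-1.68), 7 (-2.09) or 9 (-3.35). Without 1 library it ran from -0.416 to 0.409. The F ratio of the proximal share over time passed with whole bins (5.58) and long LADs (16.4), and without 1 library it ran from 3.02 to 6.29, passing without CT0 replicate 2 (6.29) or CT18 replicate 1 (5.37). That of the proximal-minus-rest difference ran from 2.90 to 6.54 without 1 library (p 0.0131 to 0.135, exact permutation) and passed in the 8 other alternatives (p 0.0188 to 0.0482, exact). CT0 minus NS ran from -3.24, without NS replicate 1, to 6.18, without NS replicate 2. Where the call changed, the cause was not tested beyond the samples or bins removed.

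With the replicate number as a block, the F ratio of the proximal share was 8.56 (p = 0.0222, exact permutation). The numbers are not a stated pairing: deviations of same-numbered mice over the proximal bins had correlations between -0.162 and 0.505 over 21 pairs of time points, 9 of them over 0.1. With 2 mice per time point and no read depth, small shifts cannot be resolved.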
